A study of Homo sapiens with 8 samples.

Results

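When a single exon can be cut at either of 2 nearby 5′ splice sites, the choice adds or removes a short stretch at the 3′ end of the exon. Events of this kind were taken from the rMATS tables of alternative 5′ splice sites, which list a short and a long form of an exon spliced to the same downstream exon, and those with sites at most 50 nt apart were kept. They numbered 1370 of 3268 events in whole-cell RNA and 976 of 2269 in cytoplasmic RNA. Both fractions together gave 1444 different events of this kind out of 3484, on 1359 distinct pairs of sites in 1175 genes, and 902 events stood in both tables. The distance depended on the annotation and the mapped junctions and not on the siRNA. Just inside the limit, 25 events had sites 49 or 50 nt apart, and just outside it, 36 had sites 51 or 52 nt apart.

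The RNA came from U2OS, a human osteosarcoma cell line, 48 h after transfection with 20 nM siRNA. All cells received an siRNA. The control siRNA was directed against EGFP, and the other, CHERP #2, was the single sequence used here against CHERP, a nuclear protein that associates with the U2 snRNP. Whole-cell RNA and the RNA of the cytoplasmic supernatant after NP-40 lysis were each sequenced from 2 biological replicates per siRNA, 8 libraries in all, with a stranded kit for mRNA. Reads on the events described here summed to 299864 to 368806 per whole-cell library and 74167 to 95404 per cytoplasmic library, with a median over events of 43.1 and 17 mean reads. CHERP siRNA lowered the reads on the splicing events of CHERP itself to 3 and 10 in whole cells, from 103 and 77 in the controls, and to 3 and 4 in the cytoplasm, from 31 and 21. The mesenchymal marker VIM held 57402 to 80880 reads per whole-cell library, whereas COL1A1, COL1A2 and SPARC had no event to count. For RUNX2, the osteoblast transcription factor, the whole-cell controls held 16 and 18 reads and the CHERP siRNA libraries 0 and 3. Of 9 markers of epithelial, blood, endothelial and liver cells, CDH1 alone had an event, with 1 and 1 whole-cell reads in the controls against 22 and 15, and 2 and 1 cytoplasmic reads against 8 and 14. Its part in the results was not tested. The median level of all retained introns was lower in the cytoplasm, at 0.0427 and 0.0447 with EGFP siRNA, than in whole cells, at 0.118 and 0.117. These medians cover different sets of introns, 1696 events in the cytoplasm and 3717 in whole cells, and read length also differs between the fractions.

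The 5′ splice site marks the start of an intron. It is first paired with the U1 snRNA and later handed over to the U6 snRNA, and the bases around the exon end decide how well U1 pairs. Almost all introns open with GT and a small share with GC. Where several usable sites lie close together, U1 and the proteins that guide it, among them SR proteins, hnRNPs and the LUC7 family, select between them. CHERP itself is known from the U2 snRNP, which recognises the branch point near the other end of the intron. A shift by a multiple of 3 in coding sequence adds or removes whole codons, and any other shift moves the reading frame and can expose the mRNA to nonsense-mediated decay.

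The sequences below are shown because the splicing of these pairs is described in the text. Each runs from the last 3 bases of the short exon to the 6th intronic base of the long form, read 5′ to 3′ on the strand of the gene from GRCh37, the assembly of the deposited coordinates. Capitals mark the first 2 intronic bases of the short site, on the left, and of the long site, on the right. The pairs of the 10 genes that follow passed the test of the siRNA in at least 1 fraction, and an eleventh, TMEM66, is named without sequence.
SSR3, chr3:156266649-156266696, minus strand: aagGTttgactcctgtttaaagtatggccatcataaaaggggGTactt
CENPW, chr6:126661543-126661596, plus strand: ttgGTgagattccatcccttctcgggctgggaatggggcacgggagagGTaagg
WDR26, chr1:224619173-224619229, minus strand: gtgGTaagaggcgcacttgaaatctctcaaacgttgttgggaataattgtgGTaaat
PCMT1, chr6:150123503-150123558, plus strand: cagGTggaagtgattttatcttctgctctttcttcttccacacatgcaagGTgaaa
CCDC84, chr11:118881991-118882027, plus strand: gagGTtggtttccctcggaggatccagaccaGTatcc
MAP4K4, chr2:102503697-102503729, plus strand: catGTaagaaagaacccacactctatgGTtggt
CATSPER1, chr11:65786253-65786300, minus strand: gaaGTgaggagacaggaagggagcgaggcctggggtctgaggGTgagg
HMGN3, chr6:79911987-79912036, minus strand: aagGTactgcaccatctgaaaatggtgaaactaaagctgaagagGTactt
HMGA1, chr6:34208657-34208698, plus strand: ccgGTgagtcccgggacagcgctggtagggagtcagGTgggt
RPLP0, chr12:120636651-120636700, minus strand: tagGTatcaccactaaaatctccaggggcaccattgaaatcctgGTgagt

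The next set holds the most deeply read pairs that were 4 or 3 nt apart and used both sites in control cells.
NDUFS5, chr1:39492068-39492080, plus strand: cggGTagGTaggg
SEC61G, chr7:54826845-54826857, minus strand: tggGTagGTgagt
CLDN12, chr7:90034920-90034932, plus strand: agcGTaaGTacgt
CEP95, chr17:62527134-62527146, plus strand: acaGTggGTaaaa
TRIT1, chr1:40315785-40315797, minus strand: cagGCagGTaaca
ERCC8, chr5:60200609-60200621, minus strand: cagGTttGTaagt
STAT3, chr17:40474294-40474305, minus strand: cagGTaGTtgtt
PARD3, chr10:34626197-34626208, minus strand: tagGTaGTgagt
TTC1, chr5:159436195-159436206, plus strand: gagGTtGTgagt
DDX46, chr5:134152291-134152302, plus strand: cagGTaTTaagt

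The most frequent distance was 4 nt, with 125 of the 1359 pairs, or 9.20%. It was followed by 9 and 12 nt with 66 pairs each, 6 nt with 57 and 15 nt with 55. A reference was formed by 70754 distinct 5′ splice sites beside the skipped-exon events of whole cells. The most frequent base at each of its positions spelled CAGGTAAGT, 3 exonic and 6 intronic bases. This string itself holds a GT at the first and at the fifth intronic base. In 97 of the pairs 4 nt apart, both sites opened with GT. Over all pairs, 1285 short sites and 1301 long sites opened with GT, 72 and 47 with GC, and 2 and 11 with other bases. GENCODE 44, lifted to GRCh37, contained 1346 of the short sites and 1342 of the long sites.

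**Figure D1:**
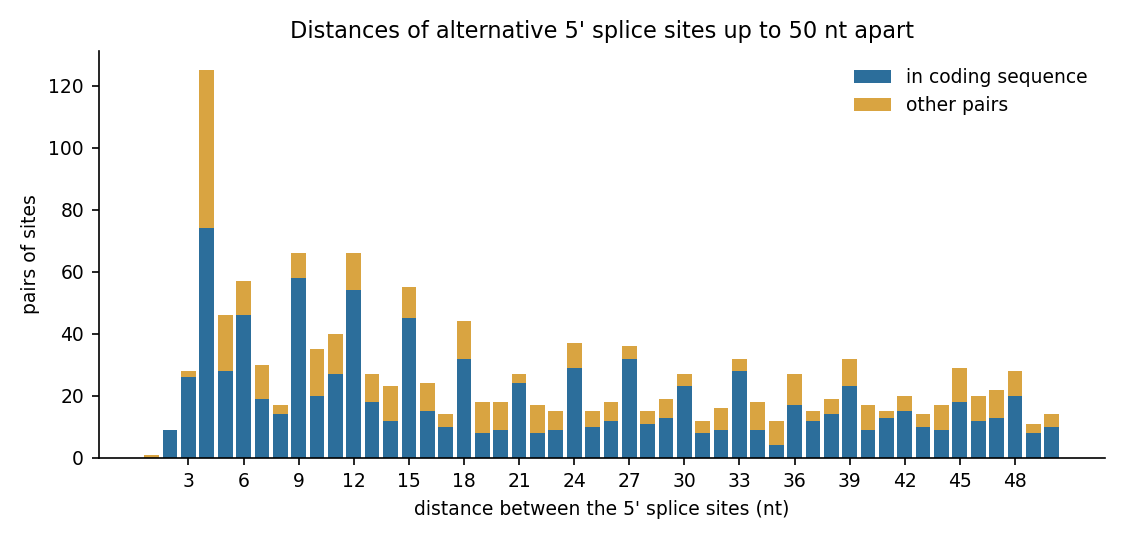
Number of distinct pairs of 5′ splice sites (vertical axis) at each distance between the sites in nt (horizontal axis). Bars are divided into pairs in coding sequence and other pairs. The bar at 4 nt reaches 125, and in the coding pairs each multiple of 3 from 6 to 33 nt stands above both of its neighbours.

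Of the pairs, 956 lay in coding sequence, 205 in 5′ UTRs, 46 in 3′ UTRs and 122 in exons of noncoding transcripts, while 19 lay only in introns of the annotation and 11 in genes whose Ensembl identifier in the tables is not in GENCODE 44. In coding sequence 51.3% of the distances were a multiple of 3, with a 95% Wilson interval of 48.1 to 54.4%. Outside coding sequence it was 121 of 403 pairs, with an interval of 25.8 to 34.7%. Of coding pairs more than 50 nt apart, 39.3% were a multiple of 3, with an interval of 36.8 to 41.9%. The coding share was 52.8% for sites 10 to 50 nt apart and 47.4% for sites 1 to 9 nt apart.

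The level of the long form is its share of the reads after the reads of each form were divided by the effective length of the form, so it runs from 0 to 1. Reads inside the added stretch count for the long form, and unspliced RNA can contribute to them. In whole cells with EGFP siRNA, 885 pairs had a mean of at least 20 reads. The median level was 0.393, but most pairs used nearly a single site. The long form lay under 0.1 in 321 pairs, over 0.9 in 272 and between these values in 292. In the cytoplasm 431 pairs had this depth, with 165 under 0.1, 143 over 0.9 and 123 between.

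Each site was given a score in bits over its 3 exonic and 6 intronic positions. It is the sum of log2 of the base's frequency in the reference sites above over 0.25. The median score was 5.68 for the short sites and 6.13 for the long sites, against 8.17 for the reference sites. Sites of pairs more than 50 nt apart scored 6.80 and 7.05. The control level followed the difference in score within the pair. Where the long site scored more than 5 below the short site, the median level in whole cells was 0.0286 (n = 51 pairs), and where it scored more than 5 above, 0.980 (n = 63). Of 480 pairs whose long site scored higher, 65.4% used the long site in more than 0.5 of the transcripts, and of 396 pairs whose short site scored higher, 73.5% used mainly the short site. Across the 885 pairs, Spearman's rho was 0.49 and Pearson's r 0.46, and in the cytoplasm 0.46 and 0.43 across 431 pairs. These are descriptions across pairs that share libraries and, in part, genes.

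**Figure D2:**
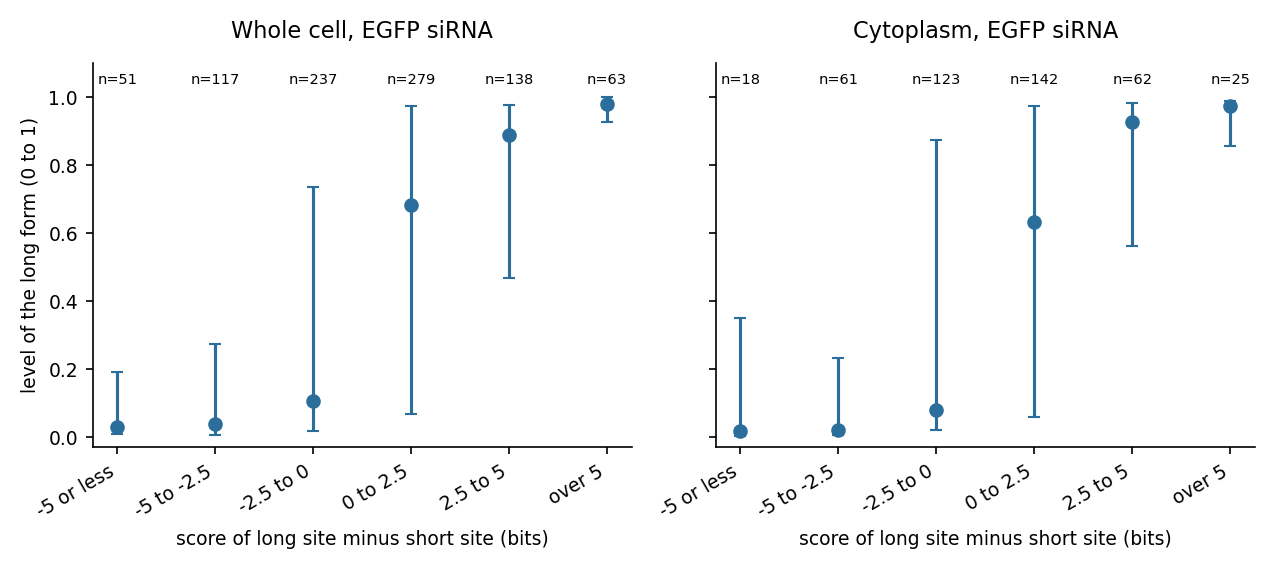
Level of the long form with EGFP siRNA (vertical axis, 0 to 1) by the score of the long site minus that of the short site in bits (horizontal axis), in whole cells and in the cytoplasm. Points are medians, bars span the quartiles and n counts pairs with at least 20 mean reads. The whole-cell median goes from 0.0286 in the lowest class to 0.980 in the highest.

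Pairs that used both sites were unevenly spread over the gene parts. In coding sequence of whole cells, a level between 0.1 and 0.9 was found for 43.3% of 349 pairs with a distance that is a multiple of 3 (interval 38.2 to 48.5%), and for 17.9% of 330 other pairs (14.1 to 22.4%). In the cytoplasm the shares were 39.4% of 198 and 12.2% of 164. In 5′ UTRs they were 64.5% of 31 and 47.0% of 66 in whole cells, with intervals that overlapped. Exons of noncoding transcripts had a median level of 0.0326 (n = 71), and 3′ UTRs of 0.0301 (n = 23), both close to exclusive use of the short site. Coding sequence stood at 0.644 (n = 679) and 5′ UTRs at 0.326 (n = 97). A stretch counted as coding if any transcript of the gene codes there, then as 5′ UTR, 3′ UTR or noncoding exon. The last class holds only stretches that no coding transcript includes, so the levels are not independent of the classes.

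**Figure D3:**
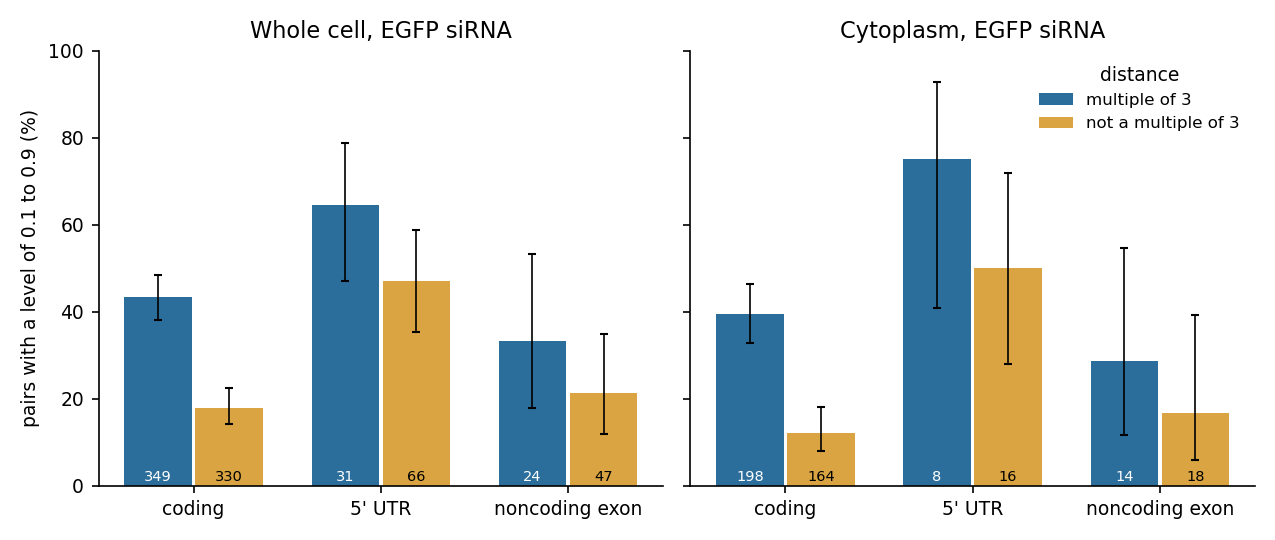
Share of pairs with a long-form level between 0.1 and 0.9 with EGFP siRNA (vertical axis, %), by gene part and by whether the distance is a multiple of 3. Error bars are 95% Wilson intervals, and numbers in the bars count pairs. In coding sequence of whole cells the share is 43.3% for multiples of 3 and 17.9% for other distances.

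Of 69 pairs 4 nt apart with enough reads in whole cells, 24 had a control level under 0.1, 24 over 0.9 and 21 between, where 33.0% of all 885 pairs lay. At 3 nt, 13 of 20 pairs lay between these values, and at 9 nt 26 of 46. NDUFS5, a subunit of respiratory complex I, used the long site of its 5′ UTR pair at 0.198 in both EGFP siRNA libraries, and at 0.206 and 0.175 with CHERP siRNA. The pair of SEC61G, a subunit of the protein channel of the endoplasmic reticulum, has the same middle letters but was spliced mainly at the long site, at 0.879 and 0.901 with EGFP siRNA against 0.894 and 0.881 with CHERP siRNA. In NDUFS5 the long site scored 7.38 and the short site 7.79, whereas in SEC61G they scored 10.4 and 6.35.

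STAT3, a transcription factor of cytokine signalling, used the long site of a pair 3 nt apart, which adds a codon, at 0.819 and 0.822 with EGFP siRNA against 0.799 and 0.787 with CHERP siRNA. In its printed sequence the short site scored 7.30 and the long site -2.84, so that the site with the lower score was the one used more. PARD3, a polarity protein, had 0.841 and 0.766 against 0.793 and 0.810. TTC1, a tetratricopeptide protein, had 0.871 and 0.906 against 0.883 and 0.909 at its 5′ UTR pair. For the 3 genes, the whole-cell values either overlapped or differed by less than 0.03 in the mean, and none passed the test. In the cytoplasm STAT3 stood at 0.801 and 0.819 against 0.846 and 0.849, a difference of 0.0372 in the other direction that did not pass either (adjusted p = 0.835).
The other deeply read pairs at 3 and 4 nt did not pass either. TRIT1, a tRNA modifying enzyme, had 0.928 and 0.820 with EGFP siRNA against 0.911 and 0.840 with CHERP siRNA, and ERCC8, a DNA repair factor, 0.0887 and 0.113 against 0.118 and 0.0852. CLDN12, a tight junction protein, had 0.200 and 0.166 against 0.129 and 0.135, with 44 and 59 reads against 250 and 260. CEP95, a centrosomal protein, had 0.256 and 0.259 against 0.364 and 0.365, without overlap but with an unadjusted p of 0.162 at 54 to 140 reads per library. DDX46, an RNA helicase of the spliceosome, had 0.830 and 0.745 against 0.840 and 0.697, and its long site opens with TT.

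Whether loss of CHERP shifts the choice between such sites was asked in each fraction by a quasi-binomial test of long against short reads, fitted over the whole table, with dispersion moderated by limma and p-values adjusted by the Benjamini-Hochberg method over all its events. In whole cells 8 of 1370 events passed an adjusted p of 0.05, and all 8 used the long site more with CHERP siRNA. The single direction depended on the depth filter. With a minimum of 10 mean reads, 9 passed toward the long site and 1 toward the short site, and with 50 mean reads 11 and 1. The background over all 3268 events was 1.13%, with 0.918% toward the long site and 0.214% toward the short site. The share among the events up to 50 nt apart was 0.584% (95% Wilson interval 0.296 to 1.15%), and 29 of 1898 events farther apart passed, or 1.53% (1.07 to 2.19%). The 2 groups differ in depth, as 916 of the 1370 and 1438 of the 1898 events had at least 20 mean reads. The part of depth in this contrast was not tested. At an unadjusted p under 0.05 stood 98 events, 71 toward the long site and 27 toward the short site, or 7.15% against 8.11% of all 3268 events, with 5.39% toward the long site and 2.72% toward the short site. The moderation gave events of similar depth the same dispersion, between 2.11 and 5.93, whatever the spread of their own libraries. With weight on each event's own spread (prior degrees of freedom capped at 4), or with limma on log2 odds, 0 passed, and 13, 6, 4 and 2 passed without the first EGFP, the second EGFP, the first CHERP and the second CHERP siRNA library, named in column order.

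TMEM66, also named SARAF, encodes a protein of the endoplasmic reticulum that restrains store-operated calcium entry. Its sites lie 40 nt apart in coding sequence. The long form stood at 0.972 and 0.966 with EGFP siRNA and at 0.993 and 0.996 with CHERP siRNA. The short form took 51 and 76 reads in the controls and 23 and 11 after CHERP siRNA, at totals of 2321 and 2800 against 4003 and 4009. The difference was 0.0257 (adjusted p = 2.29e-09) and passed without any 1 of the 4 libraries. In the cytoplasm the levels were 0.975 and 0.973 against 0.992 and 0.995 without overlap (adjusted p = 0.276).

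SSR3, the gamma subunit of the translocon-associated protein complex, has sites 39 nt, or 13 codons, apart. The long form was rare, at 0.00980 and 0.00357 with EGFP siRNA, and rose to 0.0321 and 0.0233 with CHERP siRNA (difference 0.0210, adjusted p = 0.000241). This rested on 15 and 7 long reads against 62 and 45, of 1207 to 1544 reads per library. The call was lost without the second EGFP or the first CHERP siRNA library (adjusted p up to 0.225, difference 0.0166 to 0.0254 over the libraries left out). In the cytoplasm, with 62 to 89 reads, the levels overlapped at 0.0239 and 0.0430 against 0.108 and 0.0155.

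CENPW, a protein of the inner kinetochore, has sites 45 nt, or 15 codons, apart, and passed in both fractions. The long form stood at 0.0490 and 0.0337 in whole cells with EGFP siRNA and at 0.0992 and 0.136 with CHERP siRNA (difference 0.0760, adjusted p = 0.000521). In the cytoplasm it stood at 0.0822 and 0.0200 against 0.222 and 0.152 (difference 0.135, adjusted p = 0.0179). In neither fraction did the siRNAs overlap. The long site scored higher, at 10.45 against 6.75, while the short site was the main one in all 8 libraries. The long reads in whole cells were 37 and 31 against 49 and 56, and the short reads 547 and 677 against 339 and 272. The calls were lost without the second EGFP siRNA library in both fractions, without the second CHERP siRNA library in whole cells (adjusted p up to 0.408) and without the first in the cytoplasm (up to 0.898).

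PCMT1, an enzyme that repairs damaged aspartyl residues in proteins, also passed in both fractions. Its sites are 47 nt apart. The whole-cell levels were 0.465 and 0.517 with EGFP siRNA against 0.623 and 0.621 with CHERP siRNA (difference 0.131, adjusted p = 0.00527). The cytoplasmic levels were 0.591 and 0.545 against 0.773 and 0.811 (difference 0.224, adjusted p = 0.0185). The siRNAs were apart in both fractions, at an SD of 0.0365 and 0.0016 in whole cells. The whole-cell call held without the second EGFP siRNA library and was lost without any other (adjusted p up to 0.264), and the cytoplasmic call was lost without any library (up to 0.509).

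WDR26, a subunit of the CTLH ubiquitin ligase, has sites 48 nt, or 16 codons, apart. Its long form went from 0.25 and 0.162 to 0.332 and 0.576 in whole cells (difference 0.248, adjusted p = 0.00277). A further WDR26 event at the same pair of sites, with 37.2 mean reads, stood at a mean of 0.925 with EGFP siRNA and 0.911 with CHERP siRNA and was not called. The libraries with CHERP siRNA stood far from each other, at an SD of 0.173. Without the second CHERP siRNA library the difference was 0.126, and the call was lost there and without the second EGFP siRNA library (adjusted p up to 0.939). In the cytoplasm, with 23 to 43 reads, the levels were 0.356 and 0.450 against 0.555 and 0.723 (adjusted p = 0.835).

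CCDC84, also named CENATAC, a factor of the minor spliceosome, has sites 28 nt apart. Its long form stood at 0.310 and 0.177 with EGFP siRNA and at 0.436 and 0.559 with CHERP siRNA (difference 0.254, adjusted p = 0.00609), with 106 to 127 reads per library. The long site scored -0.79 and the short site 5.35. The score pools all reference sites and does not separate introns of the minor spliceosome. Whether the long site is of that kind was not tested. MAP4K4, a kinase of stress signalling, has sites 24 nt, or 8 codons, apart, and its long form stood at 0.109 and 0.139 against 0.190 and 0.242 (difference 0.0926, adjusted p = 0.0127). Both genes overlapped between the siRNAs in the cytoplasm, CCDC84 with 8 to 18 reads and MAP4K4 with 50 to 92. The call of CCDC84 was lost without the second EGFP or the second CHERP siRNA library (adjusted p up to 0.667), and that of MAP4K4 without any but the second EGFP siRNA library (up to 0.847).

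CATSPER1, a subunit of the sperm calcium channel, had the largest difference of the 8, at a pair 39 nt apart in an exon of a noncoding transcript. The long form stood at 0.259 and 0.496 in whole cells with EGFP siRNA and at 0.764 and 0.780 with CHERP siRNA (difference 0.395, adjusted p = 0.0260), on 41 to 72 reads. The call held only without the second EGFP siRNA library, and the difference ran from 0.276 to 0.513 over the libraries left out. In the cytoplasm, with 9 to 25 reads, the levels were 0.494 and 0.376 against 0.289 and 0.566, with a difference of -0.0073.

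In the cytoplasm 5 of 976 events passed, or 0.512% (95% Wilson interval 0.219 to 1.19%), again all toward the long site. The background over all 2269 events was 0.617%, with 0.441% toward the long site and 0.176% toward the short site. At an unadjusted p under 0.05 stood 39 events, 29 toward the long site and 10 toward the short site, and of all 2269 events 4.8%, with 3.13% and 1.67% in these directions. As in whole cells, 0 passed with the cap or with limma on log2 odds. Without the first EGFP siRNA library 3 passed, without the second CHERP siRNA library 2, and without the second EGFP or the first CHERP siRNA library 0. Beside CENPW and PCMT1, the events lay in HMGN3, HMGA1 and RPLP0.

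**Figure D4:**
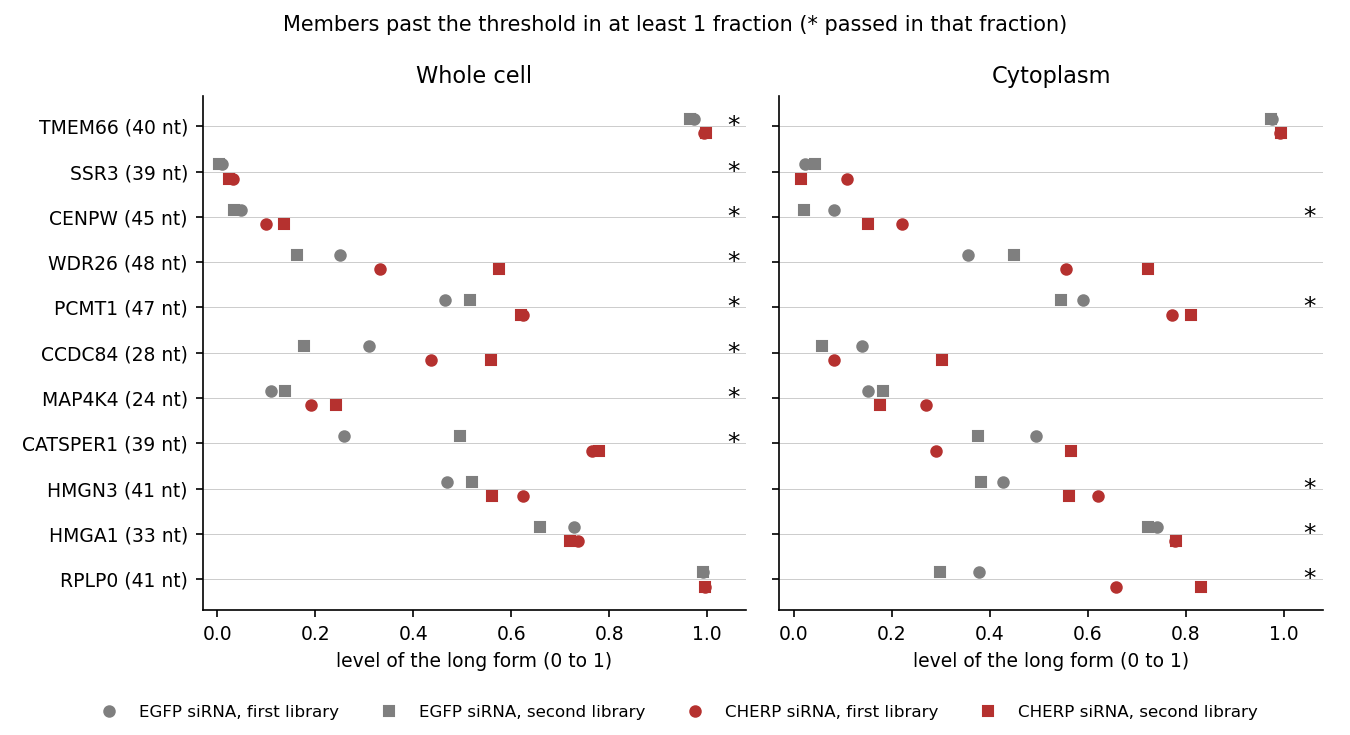
Level of the long form (horizontal axis, 0 to 1) in each library for the 11 pairs past the threshold in at least 1 fraction, with EGFP siRNA in grey and CHERP siRNA in red. Stars mark the fraction in which a pair passed. CENPW and PCMT1 are starred in both fractions, and the CATSPER1 values with CHERP siRNA lie on both sides of the control values in the cytoplasm.

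HMGN3 binds nucleosomes and loosens chromatin. Its sites are 41 nt apart, so the choice moves the reading frame. The long form stood at 0.426 and 0.383 in the cytoplasm with EGFP siRNA and at 0.622 and 0.562 with CHERP siRNA (difference 0.187, adjusted p = 0.00308). In whole cells the values were 0.469 and 0.520 against 0.624 and 0.560, apart as well, at a difference of 0.0971 that did not pass (adjusted p = 0.261). The difference between the fractions in the response was not past the threshold either, with an adjusted p of 0.931 for the interaction. The call was lost without the second EGFP or the first CHERP siRNA library (adjusted p up to 0.33).

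HMGA1, an architectural DNA-binding protein, has sites 33 nt apart, and the 11 codons between them distinguish its isoforms HMGA1a and HMGA1b. It was among the most deeply read, with 2624 to 4361 reads per cytoplasmic library. The long form stood at 0.741 and 0.723 with EGFP siRNA and at 0.777 and 0.781 with CHERP siRNA (difference 0.0471, adjusted p = 0.0179). In whole cells the values were 0.728 and 0.658 against 0.736 and 0.720, with overlap. The cytoplasmic call was lost without any 1 library (adjusted p 0.0955 to 0.898).

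RPLP0, a protein of the ribosomal stalk, passed narrowly in the cytoplasm at a pair 41 nt apart. The levels were 0.379 and 0.299 with EGFP siRNA against 0.658 and 0.831 with CHERP siRNA (difference 0.405, adjusted p = 0.0476), on 26 to 41 reads. Another cytoplasmic event at this pair, with 21.2 mean reads, stood at a mean of 0.848 against 0.938 and was not called. The first did not pass when any library was left out or when each pair of sites was represented by its deepest row alone. The same event held 6718 to 7900 reads in the whole-cell libraries, at levels of 0.991 and 0.991 against 0.995 and 0.996. Processed copies of ribosomal protein genes, and of HMGA1 and HNRNPC, share sequence with them, so reads of these genes can be lost or misplaced in mapping, and their part in these values was not tested.

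Of the 11 pairs that passed, 10 lay in coding sequence, 6 had a distance that is a multiple of 3, and the distances ran from 24 to 48 nt. The long site scored higher in 7 of them and lower in 4. In 10 of 11 the mean of the long form was higher with CHERP siRNA in both fractions, the exception being CATSPER1. The fractions were made from the same kind of cells under the same siRNAs, so this is not independent evidence. All 11 were also chosen by a rise in at least 1 fraction, which set the direction there. Over all alternative 5′ splice sites with at least 20 mean reads, 54.3% stood higher in whole cells and 55.3% in the cytoplasm. In 0 of the 11 was the intron listed in the tables of retained introns. The median level over all retained introns was lower with CHERP siRNA, at 0.098 and 0.106 in whole cells and 0.0274 and 0.0213 in the cytoplasm. Their part in the rise of the long forms was not tested.

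The pairs next in order of p did not pass in whole cells. SMARCB1, a core subunit of the SWI/SNF chromatin remodeller, has sites 27 nt, or 9 codons, apart. Its long form stood at 0.387 and 0.376 against 0.485 and 0.668 in whole cells (adjusted p = 0.0665), and at 0.559 and 0.426 against 0.692 and 0.665 in the cytoplasm (adjusted p = 0.0601). The siRNAs were apart in both fractions. PLEKHB2, a pleckstrin homology protein of recycling endosomes, stood at 0.155 and 0.126 against 0.233 and 0.259 in whole cells (adjusted p = 0.187) and at 0.10 and 0.145 against 0.285 and 0.245 in the cytoplasm (adjusted p = 0.276).
HNRNPH3, a splicing regulator that binds G-runs, stood at 0.724 and 0.750 against 0.798 and 0.797 in whole cells (adjusted p = 0.0962). A further HNRNPH3 event with the same distance and score difference, with 326.5 mean reads, was not called. It stood at a mean of 0.993 with EGFP siRNA and 1 with CHERP siRNA. XPOT, the export receptor of tRNA, stood at 0.970 and 0.944 against 0.993 and 0.988 (adjusted p = 0.0714), and RDH11, a retinol dehydrogenase, at 0.960 and 0.921 against 0.983 and 0.982 (adjusted p = 0.107). The intron of XPOT was also listed as retained, at a mean level of 0.145 with EGFP siRNA and 0.0529 with CHERP siRNA. SEC31A, a coat protein of vesicles from the endoplasmic reticulum, stood at 0.822 and 0.699 against 0.944 and 0.90 (adjusted p = 0.135).
KCNQ3, a potassium channel subunit, stood at 0.956 and 0.568 against 1 and 0.978 on 28 to 56 reads (adjusted p = 0.0519), and in the cytoplasm at 1 and 1 against 0.958 and 0.843. USP32, a deubiquitinase, had less of the long form after CHERP siRNA in whole cells, at 0.0582 and 0.133 against 0.0217 and 0.0394 (adjusted p = 0.0985). KCNQ3, XPOT, USP32, RDH11 and SEC31A passed in whole cells, and SMARCB1 in the cytoplasm, without the first EGFP siRNA library, at adjusted p of 0.00224, 0.0187, 0.0102, 0.0141, 0.0325 and 0.0317.

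Over all events up to 50 nt apart with at least 20 mean reads, the shift was small. In whole cells the median difference was 0.0014 (quartiles -0.0120 and 0.0251, n = 916), against 0.0014 over all alternative 5′ splice sites of this depth. In the cytoplasm it was 0.0016 (quartiles -0.0135 and 0.0202, n = 458), against 0.0020. Differences of at least 0.1 without overlap between the siRNAs were seen toward the long site in 54 whole-cell events, or 5.90%, and toward the short site in 28, or 3.06%. The background was 6.16% and 3.53%. In the cytoplasm there were 22 and 8 such events, or 4.80% and 1.75%, against a background of 6.08% and 2.57%.

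By distance, 0 of 422 events 1 to 10 nt apart and 0 of 319 events 11 to 20 nt apart were called in whole cells, and 0 of 291 and 0 of 224 in the cytoplasm. At 21 to 30, 31 to 40 and 41 to 50 nt, 2 of 232, 3 of 207 and 3 of 190 were called in whole cells. In the cytoplasm these were 0 of 171, 1 of 150 and 4 of 140. The share called over all alternative 5′ splice sites was 1.13% in whole cells and 0.617% in the cytoplasm. Among whole-cell events with at least 20 mean reads, 10 of 271 that were 1 to 10 nt apart differed by at least 0.1 toward the long site without overlap, and 9 toward the short site. At 11 to 20 nt these were 7 and 10 of 206, at 21 to 30 nt 16 and 6 of 165, at 31 to 40 nt 11 and 2 of 138, and at 41 to 50 nt 10 and 1 of 136. The background was 6.16% and 3.53%. In the cytoplasm they were 3 and 1 of 112, 2 and 6 of 104, 5 and 0 of 90, 2 and 0 of 74, and 10 and 1 of 78, at a background of 6.08% and 2.57%. The median reads per whole-cell event ran from 38.5 in the first band to 64 in the last. The difference between the bands was not tested.

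**Figure D5:**
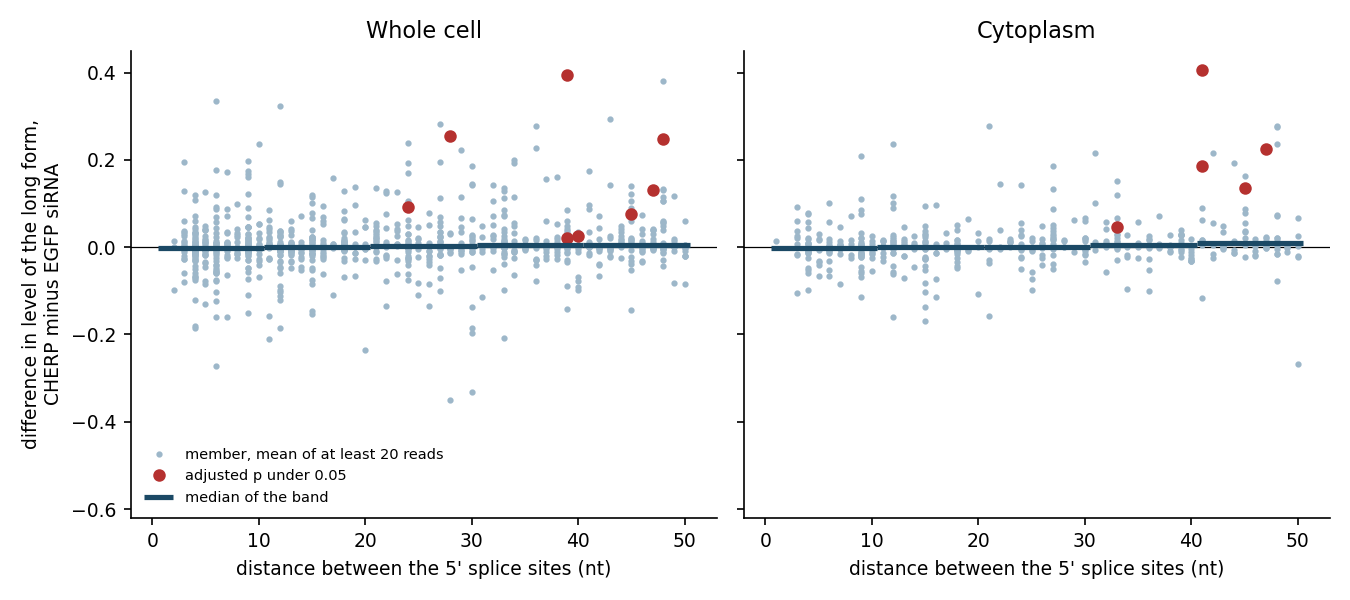
Difference in the level of the long form, CHERP minus EGFP siRNA (vertical axis), against the distance between the sites in nt (horizontal axis), for events with at least 20 mean reads. Red points passed an adjusted p of 0.05, and dark lines are medians of 10-nt bands. The red points all lie above 0 and between 24 and 48 nt.

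The events in genes of 5 lists were also counted. Genes listed as acting at the 5′ splice site, such as those of U1 components, SR proteins and hnRNPs, held 14 tested whole-cell events. Of these, 0 passed and 2 had an unadjusted p under 0.05. Other genes of RNA splicing and processing held 15 with 0 passing and 3 under 0.05. Cell cycle and division genes held 17 with 0 and 2, DNA replication and repair genes 15 with 0 and 1, and ribosome and translation genes 13 with 0 and 2. Over all events 1.13% passed and 8.11% had an unadjusted p under 0.05. The lists are not complete. CENPW and CCDC84, which passed in whole cells, are on none of them. In the cytoplasm the same lists held 10, 12, 8, 10 and 9 events, and the RPLP0 event was the only one that passed. With at least 20 mean reads in whole cells, 7 of 13, 5 of 11, 7 of 12, 1 of 10 and 6 of 11 events of these lists stood higher with CHERP siRNA, against 54.3% of all alternative 5′ splice sites. The median differences were 0.0008, -0.0005, 0.0102, -0.0319 and 7.6e-07, against 0.0014 over all.

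HNRNPC, a hnRNP that covers nascent transcripts, used both sites. Its 39 nt pair, 13 codons, stood at 0.211 and 0.211 with EGFP siRNA and at 0.255 and 0.243 with CHERP siRNA in whole cells (difference 0.0381, adjusted p = 0.147), and at 0.247 and 0.220 against 0.256 and 0.271 in the cytoplasm. SRSF7, an SR protein, used the long site of a pair 9 nt apart at 0.951 and 0.954 against 0.937 and 0.956. EIF3K, a subunit of an initiation factor, used the long site of a pair 10 nt apart at 0.957 and 0.961 against 0.963 and 0.951. Each of these stayed within 0.04 between siRNA means in whole cells.
In whole cells the ribosomal protein genes named here used nearly a single site. The long form of RPL13A lay at 0.0026 or less in every whole-cell library, and that of the RPLP0 pair 11 nt apart at 0.00693 to 0.0105. The short form of RPS3 took 36 to 75 of 9059 to 14438 reads, that of RPS3A at most 2, and that of RPL21 2 to 5. RPL41 used its long site at 0.0170 to 0.0313. RBM3, a cold-induced RNA-binding protein, showed 1 short read in all whole-cell libraries together at a short site that opens with GC.

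The abundance of the 49 genes listed as acting at the 5′ splice site was compared as well, with limma. The value was the sum over a gene's events of reads over effective length. This list also holds CHERP and its U2-associated partners RBM17 and U2SURP. In whole cells 1 of 44 tested rose and 5 fell, against a background of 13.3% and 13.7% over 9660 genes. In the cytoplasm 3 of 42 rose and 9 fell, against 19.1% and 19.9% of 7293. With scaling by total 2 rose and 16 fell in the cytoplasm, and with a minimum of 50 reads 4 and 15. The shares over all genes were not counted at these 2 settings, so these counts have no background. The median log2 change of the list was -0.15 in whole cells and -0.23 in the cytoplasm, and that of all genes 0.01 and -0.01. The U1-associated LUC7L3 fell by 0.88 (SE 0.13, adjusted p = 0.0151) in whole cells and by 0.95 (SE 0.13, adjusted p = 0.0086) in the cytoplasm. LUC7L, of the same family, fell by 0.52 and 0.86, the U1 protein gene SNRPC by 0.63 and 0.52, and RBM25, which supports U1 binding, by 0.69 and 0.85. The gene of the U1 70K protein, SNRNP70, fell by 0.58 in the cytoplasm (adjusted p = 0.0161) and stood at -0.50 in whole cells (adjusted p = 0.0754). The remaining genes that fell in the cytoplasm were LSM6, HNRNPF, SRSF1 and PTBP1, by 0.52, 0.48, 0.50 and 0.36. LUC7L2, of the LUC7 family, and SNRPA passed in neither fraction, at -0.12 and -0.21 in whole cells and -0.25 and -0.23 in the cytoplasm. The helicase gene DDX5 rose by 0.56 and 0.51. The largest rise in the cytoplasm was that of LSM7, of the Lsm ring on the U6 snRNA, at 0.75 (adjusted p = 0.0171), and HNRNPH1, a hnRNP that binds G-runs, rose by 0.48 there (adjusted p = 0.0298). CHERP, the target of the siRNA, was also on the list and is 1 of the 5 genes above. It fell by 3.46 in whole cells. Of the list, 4 passed in whole cells without the first EGFP siRNA library, 2 without the second and 1 without either CHERP siRNA library, and in the cytoplasm 2 without the second EGFP siRNA library and 3 without any other. In bulk RNA, fewer cells that express a gene and less of its RNA per cell cannot be told apart. Whether any of these changes bears on the pairs above was not tested.

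The siRNA effect was compared between the fractions at the 902 events in both tables. With an interaction of siRNA and fraction, 0 passed, 32 had an unadjusted p under 0.05, and the smallest adjusted p was 0.931. Of all 2053 events shared by the fractions, 0.0487% passed and 3.6%, or 74, had an unadjusted p under 0.05.

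With EGFP siRNA alone, levels in the cytoplasm were close to those in whole cells. Over 401 pairs with at least 20 reads in both, the median of cytoplasm minus whole cell was -0.0020 (quartiles -0.0211 and 0.0147), and 42 pairs differed by at least 0.1. At coding pairs with a distance that is a multiple of 3, 27 of 185 differed by at least 0.1, and at other coding pairs 8 of 149. The starting levels of these classes differed too. Of all coding pairs with enough whole-cell reads, 43.3% and 17.9% lay between 0.1 and 0.9, and levels near 0 or 1 leave less room for such a difference. The part of this in the contrast was not tested. The effective length of the short form was 144 in the whole-cell tables and 73 in the cytoplasmic ones, so read length and fraction cannot be told apart. Of 902 events 12 passed this test, 5 toward the long site in the cytoplasm and 7 toward the short site. The background over 2053 events was 4.63%, with 1.85% and 2.78% in these directions. Without the first or second whole-cell library 37 and 22 passed, and without the first or second cytoplasmic library 2 and 1.

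FAM160A2, which encodes an adaptor of endosome transport, stood at 0.699 and 0.739 in whole cells and at 0.263 and 0.291 in the cytoplasm (difference -0.442, adjusted p = 0.00946), on 25 to 32 reads. ST3GAL4, a sialyltransferase, stood at 0.747 and 0.857 in whole cells and used only the long site in 32 and 30 cytoplasmic reads (difference 0.198, adjusted p = 0.0331). SRSF1, an SR protein that promotes U1 binding, had 4 and 13 long reads among 250 and 168 in whole cells and 1 and 1 among 290 and 271 in the cytoplasm (adjusted p = 0.0221). RPL13A had 22 and 12 long reads among 7264 and 6947, and 1 and 0 among 5156 and 5431 (adjusted p = 0.00891). For RPLP0, the long form of the pair 41 nt apart had 6689 and 7666 reads in whole cells and 20 and 12 in the cytoplasm, and the short form 46 and 52 against 21 and 18. The other passing events, in UQCRH, GNB2L1, CHCHD7, TMEM68, HNRNPH1 and DCAF11 and a further row of RPLP0, had a mean of 2.5 to 18 reads in the less deeply read fraction.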

How the data were processed

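Per the labels and the study's methods, stranded mRNA libraries were sequenced (NextSeq) and the reads aligned by STAR 2.5.2b against hg19, and splicing events were counted with rMATS (version not given in the sources used here). The tables deposited by the authors hold, for each event, the reads on the long and the short form in each library, joined in a cell in an order without replicate number, and each form's effective length. The authors' p-values, FDR and level differences, a table of their differential expression, and 16 columns of per-library levels in the 8 tables read were not used. The members, lists and tests were chosen with earlier results of these data known.

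Reads were tested with a quasi-binomial model in R 4.3.3, with Pearson dispersion moderated by squeezeVar of limma 3.58.1 on the mean reads and a floor of 1. The estimated prior degrees of freedom were infinite, so an event took the dispersion of its depth. All events with reads in both siRNAs were tested without a depth filter, and descriptions were limited to events averaging 20 or more reads. Gene abundance was tested with limma on log2(value + 0.01), scaled by median ratios, for genes averaging 20 or more reads. Fold changes on this scale understate changes of low genes. Both tests were run on simulated data. Sites were read from GRCh37 with pysam 0.24.0, and gene parts from GENCODE 44. The authors name RSEM 1.2.25 and GENCODE 19 for expression. Figures and tables used Python 3.11.15, pandas 2.3.3, scipy 1.17.1 and matplotlib 3.10.9.

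Named pairs were all that passed in a fraction, filled by smallest p to 15 in whole cells and 8 in the cytoplasm, up to 5 per direction for the fractions, the 6 and 4 deepest pairs 4 and 3 nt apart with a control level of 0.1 to 0.9, and the 10 deepest in the lists, 1 per gene, taking the deepest row of a pair. Intervals cover counting error only. With 2 biological replicates per group, spreads of single events are poorly known. Alternatives were a cap of 4 on the prior degrees of freedom, other depth minima, limma on log2 odds, a difference of at least 0.1, a limit of 30 nt, 1 row per pair, another pseudocount, total scaling, and leaving out each library.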

Additional observations from a re-analysis of the deposited data

How the results depend on the processing

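No paired analysis was possible because the libraries within a cell carry no replicate number. Beside the 8 whole-cell and 5 cytoplasmic events called, 0 and 0 passed with the prior degrees of freedom capped at 4, 0 and 0 with limma on log2 odds, and 2 and 0 with a limit of 30 nt. A difference of at least 0.1 left 4 in whole cells. Leaving out 1 library gave 2 to 13 and 0 to 3. The cap left 1 of the 12 events that differed between fractions, and leaving out 1 library gave 1 to 37. Of the factor genes, 19 passed in the cytoplasm with at least 50 reads, a setting at which the share over all genes was not counted. Spearman's rho was 0.52 with at least 50 reads, 0.36 with matches to the consensus and 0.49 with all rows in whole cells, 0.48 to 0.49 in 1 library, and 0.32 with matches in the cytoplasm. Interaction calls numbered 0 in every alternative run. Over 13 calls of named events, 60 of 116 alternatives lost the call and 0 reversed it, and over 10 that did not pass, 13 of 89 gained it. In the cytoplasm 349 of 976 events had under 10 mean reads, which limits what could be detected there.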

Other observations

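A few sites that open with neither GT nor GC were well read, and they were chosen here after their values were seen. FGFR1, a receptor of fibroblast growth factors, has a GT and a GA site 6 nt apart, both annotated, and with EGFP siRNA the GA site was used at 0.873 in whole cells (83.5 mean reads) and 0.834 in the cytoplasm (25.2 mean reads). FGFR2, of the same family, has a GA long site at the same distance, used at 0.722 in whole cells on 6 mean reads. The TT site of DDX46, annotated as well, was used at 0.787 and 0.736. The other such long sites were near 0 where reads were many, at 0.0063 for the CC site of UIMC1 (224 mean reads), 0.0055 for the TT site of USP15 (206) and 0.0154 for the GA site of DEDD (56.5). DNA2, a nuclease and helicase of replication, has a pair of AT sites 2 nt apart, of which the long site was used at 0.0071 in whole cells.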
